A study of Mus musculus with 20 samples.

Results

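The collagens are the family of mouse genes whose symbols read Col, a number, a and a second number with nothing after it. Members were taken by that form of the symbol alone, which found 42 genes among 22102 entries of the differentiation time course and 43 among 42115 entries of the discovery set. Col6a3 was found in the discovery set only. By the kind of assembly their proteins form, the members comprise 11 fibrillar collagens, 6 basement membrane type IV chains, 2 multiplexins, 7 type VI and type XXVIII chains, 9 fibril associated collagens, 4 transmembrane collagens, 1 anchoring fibril collagen and 3 short chain network collagens. The series concerns Braveheart, a long noncoding RNA studied in the cardiac differentiation of mouse embryonic stem cells (mESC), and sequenced mRNA purified from total RNA. In the time course, E14 mESC of strain 129/Ola carried a pLKO.1 lentiviral hairpin and were selected with puromycin. Cells with hairpin A, hairpin B or a scrambled hairpin were sequenced at days 0, 3, 6 and 9, with 1 library per hairpin and day. Both hairpins are aimed at Braveheart, whose own level was not analysed here. In the discovery set, 2 partially reprogrammed lines, 11.3 and 11.5, and 1 fully reprogrammed line, miPS MCV8.1, had been made from mouse embryonic fibroblasts (MEF) by retroviruses carrying Oct4, Sox2, c-myc and Klf4. Those 3 lines and the parental MEF are 129/svJae x C57BL/6 and carry Oct4-GFP, with 1 library each. Wild-type E14 mESC (129/Ola) and wild-type v6.5 mESC (129/svJae x C57BL/6) had 2 libraries each. Each reprogrammed line is a single line, so the spread between lines 11.3 and 11.5 is a spread between lines. The mESC and iPS cells were grown on irradiated MEF, which were removed by pre-plating, while the partially reprogrammed lines were kept without feeders. The labels describe embryoid body and directed cardiomyocyte protocols without assigning them to libraries.

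Collagens are triple helical proteins of the extracellular matrix. Fibrillar collagens build the tension-bearing fibrils of skin, bone, cartilage and vessel walls, type IV chains build the sheet of basement membranes, and fibril associated collagens decorate the surface of fibrils. In the early mouse embryo the endoderm secretes type IV collagen into a basement membrane, and in the forming heart basement membrane and later fibrillar collagen surround the muscle cells.

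Depth implied by the lowest steps of the FPKM values was about 8548100 to 13963700 fragments per time course library, at which 3 fragments on a 5 kb transcript correspond to 0.043 to 0.0702 FPKM. Discovery libraries held 7536503 to 23662593 assigned reads, and 3 reads correspond to 0.127 to 0.398 CPM (counts scaled by library total). The labels do not say whether replicates were separate cultures, and p-values therefore cover the spread among these libraries alone, which may be technical. In hairpin B, the day 6 and day 9 libraries were unlike the other differentiated libraries. Their correlation across genes with the day 0 libraries was 0.934 to 0.945 at day 6 and 0.944 to 0.953 at day 9, against 0.846 to 0.893 for hairpin A and scrambled libraries of those days. The 8 pluripotency markers summed to 4828 and 7655 FPKM in hairpin B at days 6 and 9, to 1408 and 949 FPKM in hairpin A, and to 1052 and 798 FPKM in scrambled cells.

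Several collagen genes lie beside each other, and their upstream sequences show how. Reference windows of 250 bases before and 50 bases after the transcription start (RefSeq, GRCm38.p6) were found for 35 of the 43 members, as 38 windows. The first 4 runs are upstream bases, with exon bases left out. They are printed for Col3a1 and Col1a2, the fibrillar genes at least 2-fold apart from scrambled cells in both hairpins on a day, and for the adjacent type IV genes. Capitals mark a TATA box (TATAAA) in Col3a1, on chr1:45311288-45311537 of the plus strand, a CCAAT box (CCAAT) in Col4a5, on chrX:141475169-141475384 of the plus strand, and GC boxes in the others. The Col4a6 run (CCGCCC) is chrX:141474077-141474326 of the minus strand and the Col1a2 run (GGGCGG) is chr6:4505370-4505492 of the plus strand. The last run is not upstream: it is the 22 bases on chr8:11312805-11312826, read on the plus strand, that lie between the RefSeq starts of Col4a2 and Col4a1 and belong to the annotated 5′ ends of both genes.
Col3a1: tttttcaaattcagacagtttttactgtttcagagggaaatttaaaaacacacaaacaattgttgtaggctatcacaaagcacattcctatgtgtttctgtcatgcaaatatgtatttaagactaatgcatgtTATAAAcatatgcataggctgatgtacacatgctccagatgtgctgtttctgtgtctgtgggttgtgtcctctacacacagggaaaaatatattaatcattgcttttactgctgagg
Col4a5: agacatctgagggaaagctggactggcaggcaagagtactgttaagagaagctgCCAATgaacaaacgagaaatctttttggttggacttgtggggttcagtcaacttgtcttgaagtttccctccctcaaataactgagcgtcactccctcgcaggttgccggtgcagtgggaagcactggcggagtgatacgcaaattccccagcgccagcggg
Col4a6: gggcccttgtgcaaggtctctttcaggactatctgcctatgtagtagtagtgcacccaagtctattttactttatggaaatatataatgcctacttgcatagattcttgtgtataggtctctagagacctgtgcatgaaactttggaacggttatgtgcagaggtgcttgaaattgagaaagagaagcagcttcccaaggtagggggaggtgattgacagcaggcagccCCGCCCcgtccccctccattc
Col1a2: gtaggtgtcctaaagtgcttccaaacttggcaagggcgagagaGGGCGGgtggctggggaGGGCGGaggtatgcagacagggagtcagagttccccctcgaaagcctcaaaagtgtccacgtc
Col4a1 and Col4a2 overlap: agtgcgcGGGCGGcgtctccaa
In the Col3a1 run the TATA box letters stand 117 to 112 bases before the start, and the Col1a2 run holds the GC box letters at 205 and 188 bases before the start. Over all collagen windows, and on both strands, CCAAT or ATTGG occurred in 13 of 38 (34.2%), against 37.4% of all 32851 windows of this length. GGGCGG or CCGCCC occurred in 23 of 38 (60.5%), against 35.7% of all windows, and TATAAA or TTTATA in 5 of 38 (13.2%), against 13.6%. In the printed runs no 2 matches overlap, and a match describes the letters only.

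In the deposited tables, on mm9, Col4a1 (chr8:11198423-11312826) and Col4a2 (chr8:11312829-11449286) face away from each other with 2 bases between them, and Col4a6 (chrX:137599946-137908619) and Col4a5 (chrX:137909962-138123778) are separated by 1342 bases. The ratio of Col4a1 to Col4a2 in FPKM stayed between 1.22 and 2.61 in all 12 time course libraries. The ratio of the Col4a6 to the Col4a5 level was 0.440 to 0.523 in the 4 libraries where both reached 0.5 FPKM. Col3a1 (chr1:45368383-45406550) and Col5a2 (chr1:45431176-45560127), with 24625 bases between them, had FPKM ratios of 0.844 to 53.0 over the 7 time course libraries where both reached 0.5 FPKM. Col6a2 (chr10:76058501-76086149) and Col6a1 (chr10:76171537-76188789), with 85387 bases between them, had ratios of 0.415 to 2.68 over 10. These ratios are descriptions and were not tested.

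Col18a1, whose basement membrane protein yields endostatin, had the highest mean FPKM of the family in the time course (chr10:76514924-76629275, mm9). Its level was 77.3, 110, 44.0 and 76.6 FPKM at days 0, 3, 6 and 9 with hairpin A, 127, 126, 91.7 and 116 FPKM with hairpin B, and 70.1, 121, 64.3 and 87.6 FPKM with the scrambled hairpin. It was the highest member in each library, the culture with hairpin B was highest on every day, and no day comparison called it. Its class, the multiplexins, made up 76.6% to 80.3% of the summed collagen FPKM at day 3, when fibrillar collagens made up 7.18% to 9.53%. At day 9 type IV chains made up 33.3% in hairpin A, 18.9% in hairpin B and 25.3% in scrambled cells. Altogether 7 members reached 10 FPKM in some library, and 11 stayed below 1 FPKM in every library.

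**Figure D1:**
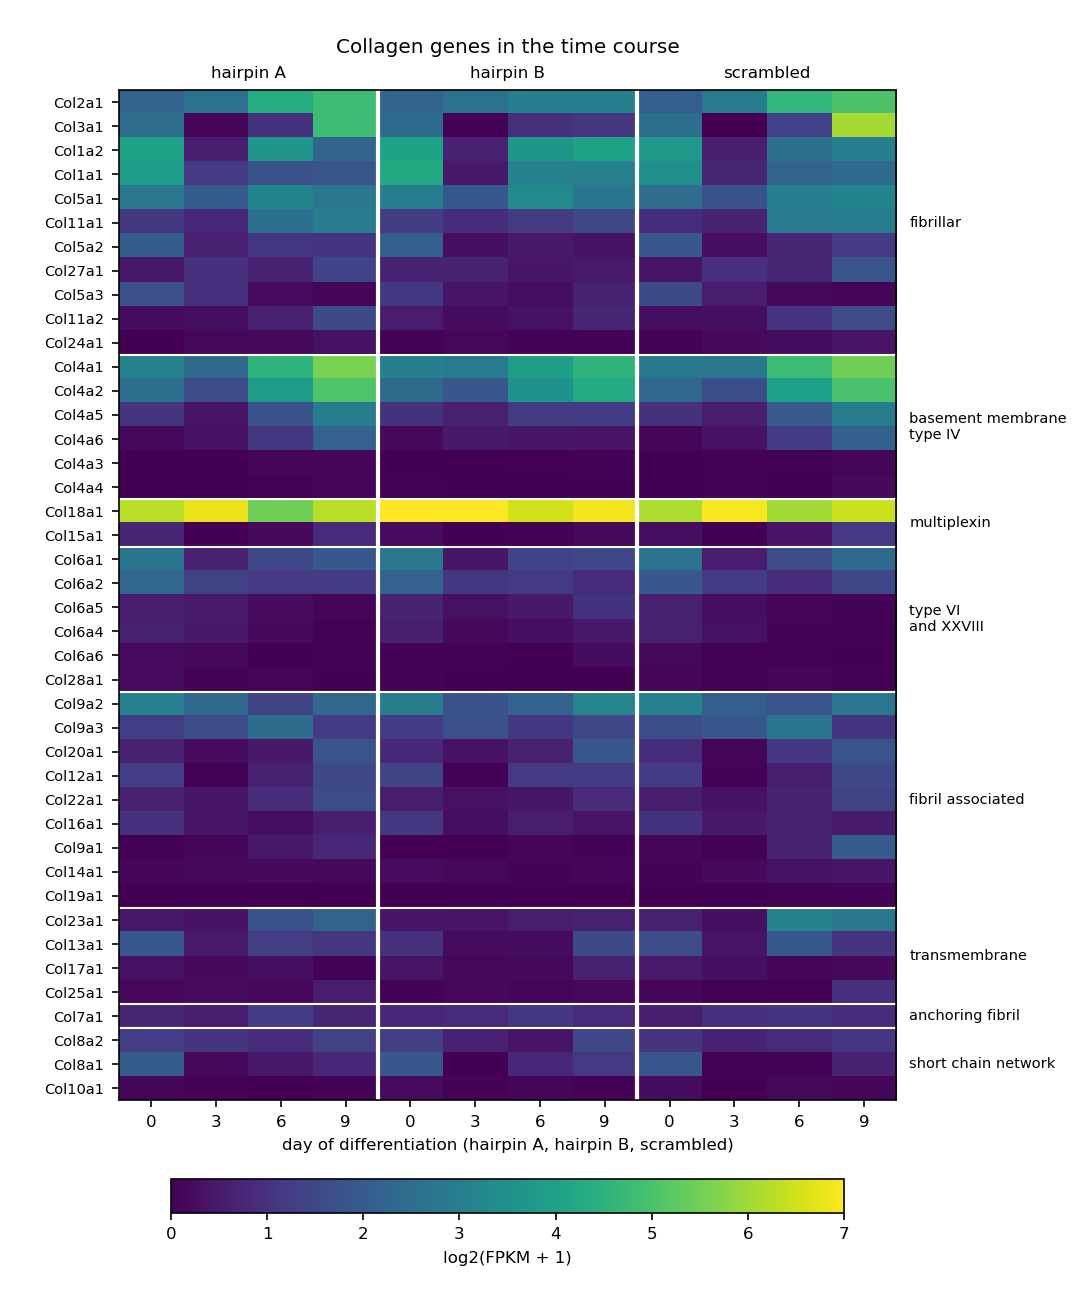
Level of the 42 collagen genes in the 12 time course libraries, as log2(FPKM + 1) by colour, with genes down the page grouped by assembly class and days 0 to 9 across for hairpin A, hairpin B and scrambled cells. Col18a1 is bright in every library, type IV chains brighten at days 6 and 9, and most fibrillar genes are dark at day 3.

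The first question of the time course is how the family changed as the cells differentiated. For this, days 3, 6 and 9 were each set against day 0 over the 3 cultures, on log2(FPKM + 1), a scale that understates the change of low genes. A gene was called at a Benjamini-Hochberg adjusted p under 0.05 over the 14108 genes that reached 1 FPKM in at least 2 libraries. Of the 42 members, 28 entered the test and 14 did not. Among members called below, Col5a3, Col8a1 and Col16a1 would not have passed without their day 0 values. Col4a6, Col11a2 and Col20a1 would not have passed without their later values. For these members the filter itself favoured the direction called. The 3 comparisons share the day 0 libraries. In these bulk samples, fewer cells of a type and less RNA per cell cannot be told apart.

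At day 3 the collagens called lower included 4 of the 11 fibrillar genes, namely Col1a1, Col1a2, Col5a1 and Col5a2, and no collagen was called higher. The fibrillar gene Col24a1 was under the filter and not tested. The others called lower, Col6a1, Col6a2, Col8a1, Col12a1 and Col16a1, were not fibrillar. Relative to day 0, limma called 9 of 28 collagens lower (32.1%), against 2.78% of all genes tested, and 0 higher, against 3.26%. At an unadjusted p under 0.05, 15 members passed in either direction. The median log2 difference was -0.61 for the 28 collagens and 0.01 for all genes. At day 6, limma called 2 members up (7.14%, against 4.97% of all genes) and 7 down (25.0%, against 3.71%), with medians of -0.20 and 0.07. At day 9, 7 were higher (25.0%, against 10.3%) and 7 lower (25.0%, against 6.22%), with medians of 0.13 and 0.10. Across the 3 comparisons 18 members were called at least once and 10 were tested and never called. Without the hairpin B libraries of both day 6 and day 9, the day 3 comparison called 1 collagen higher and 17 lower, the day 6 comparison 10 in each direction, and the day 9 comparison 12 higher and 9 lower. Shares of all genes called are not given for this fit or the refits below. Their counts therefore cannot be set against the shares above. The counts also moved with single libraries. Without the scrambled library of day 3, 5 collagens were called lower at day 3, and Col16a1, Col5a1, Col5a2 and Col6a2 were not. Without the hairpin A or the scrambled library of day 6, 0 were higher and 1 lower at day 6, and without the hairpin B library 5 were higher. At day 9, leaving out the hairpin A library gave 2 higher and 0 lower, leaving out the scrambled library gave 2 higher and 1 lower, and leaving out the hairpin B library gave 12 higher.

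Type I collagen, the main fibril of bone, skin and tendon, fell at day 3 in both of its chains. Col1a1 (chr11:94797584-94813170, mm9) read 14.1, 1.24, 2.31 and 2.59 FPKM at days 0, 3, 6 and 9 with hairpin A, 18, 0.399, 7.56 and 7.24 FPKM with hairpin B, and 10.3, 0.678, 3.79 and 4.22 FPKM in scrambled cells. Every later value lay below every day 0 value, and the day 3 values were the lowest in each culture. Its log2 difference was -3.08 ± 0.40 (SE) at day 3 (limma adjusted p = 0.003), -1.52 at day 6 (adjusted p = 0.046) and -1.46 at day 9 (adjusted p = 0.0406), in all 3 cultures each time. Col1a2 (chr6:4455697-4491543, mm9) had 15.4, 0.507, 11.6 and 3.87 FPKM with hairpin A, 15.6, 0.568, 12.0 and 15.3 FPKM with hairpin B, and 12.5, 0.491, 5.04 and 6.98 FPKM in scrambled cells. It fell by 3.34 ± 0.39 at day 3 (limma adjusted p = 0.00201), while its day 6 and day 9 values spread from near the day 0 level to a fraction of it and were not called.

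Type V collagen, which sets the diameter of type I fibrils, was lower at day 3 in all 3 of its chains, of which 2 were called. Col5a1 read 5.99, 3.07, 7.97 and 5.84 FPKM with hairpin A over the 4 days, 6.66, 2.79, 8.94 and 5.64 FPKM with hairpin B, and 4.62, 2.38, 7.06 and 7.95 FPKM in scrambled cells. Its day 3 values lay below all others and its difference there was -0.84 ± 0.18 (limma adjusted p = 0.0274). Col5a2 had 3.16, 0.547, 1.16 and 1.09 FPKM with hairpin A, 3.38, 0.207, 0.396 and 0.278 FPKM with hairpin B, and 2.70, 0.195, 0.680 and 1.23 FPKM in scrambled cells, so that every later value lay below day 0. It fell by 1.64 at day 3, 1.25 at day 6 and 1.17 at day 9 (limma adjusted p = 0.00832, 0.0238 and 0.0255). Col5a3 had 2.27, 0.951, 0.149 and 0.0594 FPKM with hairpin A, 1.21, 0.318, 0.196 and 0.546 FPKM with hairpin B, and 1.91, 0.439, 0.113 and 0.0913 FPKM in scrambled cells. It was called lower at days 6 and 9, by -1.26 and -1.18 (limma adjusted p = 0.0164 and 0.0185).

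The remaining fibrillar genes followed several courses. Col3a1, the type III collagen of skin and vessel walls, had 4.66, 0.0779, 0.980 and 27.2 FPKM with hairpin A, 4.43, 0.0436, 0.918 and 1.15 FPKM with hairpin B, and 4.78, 0, 1.64 and 65.1 FPKM in scrambled cells. It fell at day 3 in every culture, with log2 changes of -2.39, -2.38 and -2.53 in hairpin A, hairpin B and scrambled cells, and was not called. At day 9 it was high in the hairpin A and scrambled cultures and below its day 0 level in the hairpin B culture. The day 9 difference of 1.50 ± 0.90 was not called (limma adjusted p = 0.225), and without the hairpin B library of day 9 it was 2.88 (adjusted p = 0.000215). Col2a1, the type II collagen of cartilage and notochord (chr15:97806033-97835155, mm9), had 3.72, 5.28, 19.1 and 27.1 FPKM with hairpin A, 3.83, 5.21, 7.08 and 7.04 FPKM with hairpin B, and 3.30, 6.22, 23.9 and 31.8 FPKM in scrambled cells. All day 9 values exceeded all day 0 values, those of hairpin B least, and the day 9 difference was 2.08 ± 0.49 (limma adjusted p = 0.0295). Type XI collagen assembles with type II. Its chain Col11a2 rose at day 9 by 0.94 ± 0.25 (limma adjusted p = 0.0399), to 1.92, 0.648 and 2.10 FPKM in hairpin A, hairpin B and scrambled cells. Col11a1 read 6.68, 1.88 and 6.80 FPKM at day 9 in the same order, against 1.18, 1.36 and 0.897 FPKM at day 0, and was not called.

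Markers of other cell types were followed on the same days. The 8 fibroblast markers summed to 15.6, 10.8 and 18.2 FPKM at day 3 in hairpin A, hairpin B and scrambled cells, with 2 of the 8 at 0 in each culture, and to 32.5, 29.0 and 31.4 FPKM at day 0, with none at 0. Postn, a matrix protein of fibroblasts and valve mesenchyme, had 3.26, 0, 2.38 and 27 FPKM with hairpin A, 3.24, 0.0261, 0.850 and 4.4 FPKM with hairpin B, and 3.17, 0.0262, 4.41 and 38.5 FPKM in scrambled cells. The fibroblast surface protein Thy1 went the other way by day 9, with 18.2, 14.4, 6.00 and 1.45 FPKM with hairpin A, 14.4, 10.2, 1.96 and 5.13 FPKM with hairpin B, and 17.2, 17.0, 5.19 and 1.34 FPKM in scrambled cells. Of the 7 fibroblast markers tested, limma called 1 lower at day 3 (Thbs2), 2 lower at day 6 (Thbs2 and Thy1), and 1 higher (Postn) and 2 lower (Thbs2 and Thy1) at day 9. Among all genes, 2.78%, 3.71% and 6.22% were called lower at days 3, 6 and 9, and 3.26%, 4.97% and 10.3% higher. Cartilage and notochord markers summed to 91.5, 3.63 and 82.0 FPKM at day 9, and 2.66, 6.26 and 2.67 FPKM at day 0, in the same order of cultures. Most of the day 9 sum was Shh and T, with 46.8 and 35.4 FPKM in hairpin A and 47.6 and 23.8 FPKM in scrambled cells. In those cultures Acan alone fell, from 1.47 to 0.0815 FPKM and from 1.35 to 0.0626 FPKM. At day 9 limma called 0 of the 5 tested, against 10.3% of all genes higher and 6.22% lower. The part of such cells, feeder fibroblasts included, in the collagen values was not tested.

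Of the 6 type IV chains of the basement membrane, 4 rose by day 9 and the other two were under the filter. Col4a1 read 7.38, 4.2, 22 and 47.5 FPKM with hairpin A, 6.99, 6.31, 14.2 and 22.6 FPKM with hairpin B, and 6.11, 5.83, 26.8 and 43.8 FPKM in scrambled cells. Col4a2, its partner in the common type IV trimer, read 4.92, 2.01, 13.5 and 32.7 FPKM with hairpin A, 4.33, 2.74, 11.2 and 18.5 FPKM with hairpin B, and 3.99, 2.24, 14.4 and 31.0 FPKM in scrambled cells. For both genes every day 6 and day 9 value exceeded every day 0 value, and the hairpin B culture had the lowest value on both days. The differences were 1.45 ± 0.29 and 2.25 ± 0.29 for Col4a1 at days 6 and 9 (limma adjusted p = 0.0219 and 0.00518), and 1.37 ± 0.22 and 2.35 ± 0.22 for Col4a2 (limma adjusted p = 0.00946 and 0.00104). Both day 9 calls held without the hairpin A or the scrambled library of that day.

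The X-linked chains Col4a5 and Col4a6, which form trimers in specialised basement membranes such as that of smooth muscle, rose at day 9. Col4a5 had 1.06, 0.309, 2.42 and 6.81 FPKM with hairpin A, 1.04, 0.538, 1.38 and 1.32 FPKM with hairpin B, and 1.01, 0.479, 2.98 and 6.76 FPKM in scrambled cells. Col4a6 had 0.109, 0.272, 1.19 and 3.56 FPKM with hairpin A, 0.133, 0.399, 0.346 and 0.299 FPKM with hairpin B, and 0.0747, 0.279, 1.31 and 3.5 FPKM in scrambled cells. For both genes the hairpin A and scrambled values were close and the hairpin B value was the lowest at day 9. The day 9 differences were 1.35 ± 0.40 for Col4a5 and 1.43 ± 0.42 for Col4a6 (limma adjusted p = 0.0478 and 0.0479). The other chains, Col4a3 and Col4a4, stayed below 1 FPKM in every library. Genes listed as markers of parietal and primitive endoderm, cells that secrete type IV collagen, summed over 8 genes to 78, 19.8 and 86.9 FPKM at day 6 and to 74.7, 13 and 72.2 FPKM at day 9 in hairpin A, hairpin B and scrambled cells, against 12.7, 13.5 and 11.2 FPKM at day 0, with none of the 8 at 0. Of the 8, limma called 3 higher at day 6 (Foxa2, Gata6 and Sox17), against 4.97% of all genes, and 1 at day 9 (Foxa2), against 10.3%. Foxa2 was the largest in hairpin A and scrambled cells, with 33.9 and 32.8 FPKM at day 6 and 32.2 and 29.5 FPKM at day 9. Thbd went the other way by day 9, at 1.16, 1.06 and 1.60 FPKM in the 3 cultures, against 2.34, 3.26 and 1.92 FPKM at day 0. Sox7 stayed at or below 2.04 FPKM, and Gata4 and Gata6 were lower at day 9 than at day 6 in all 3 cultures. The sums therefore do not identify the cells, and the part of endoderm cells in the type IV values was not tested.

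**Figure D2:**
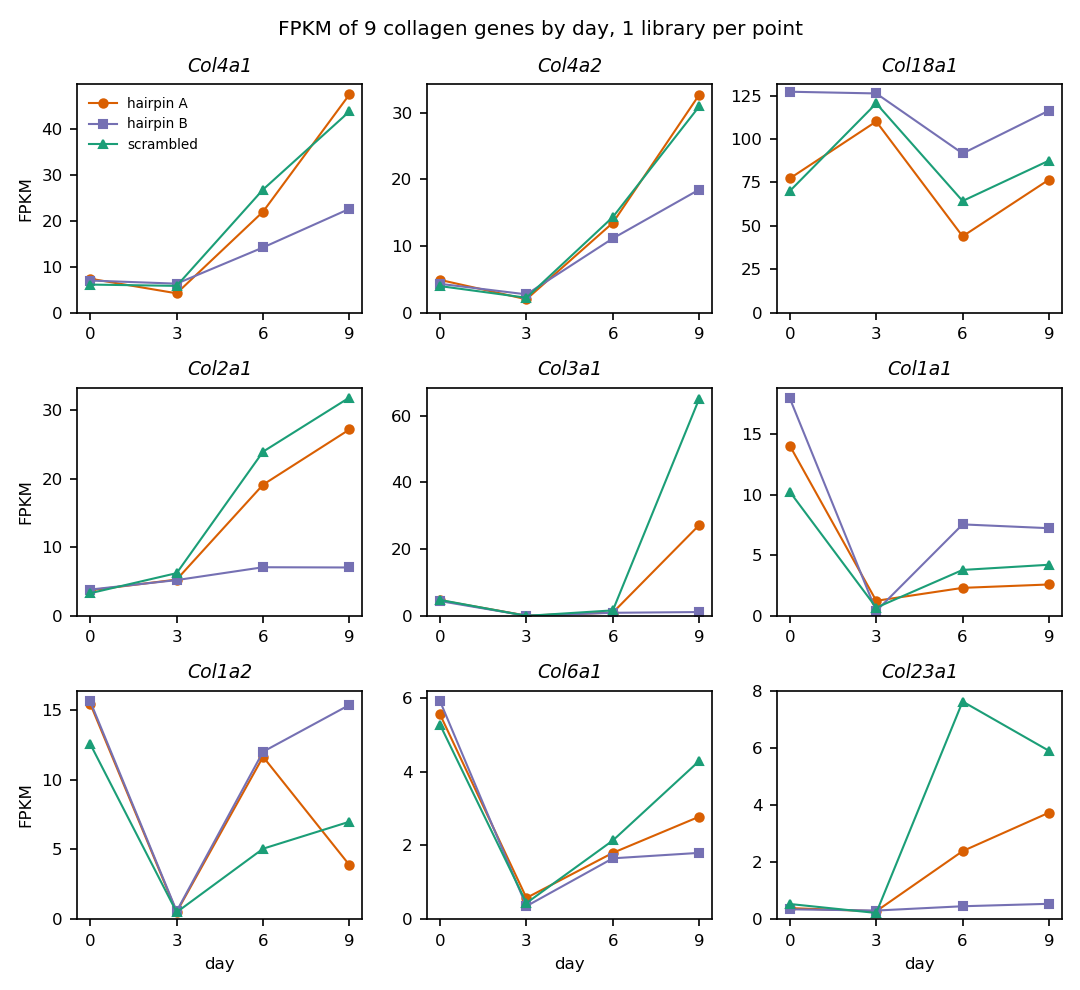
FPKM of 9 collagen genes on linear axes against day, with 1 library per point and a line for each of hairpin A, hairpin B and scrambled cells. Col4a1 and Col4a2 climb in all 3 cultures, Col1a1, Col1a2 and Col6a1 dip at day 3, and the hairpin B line is the lowest at days 6 and 9 for Col2a1 and Col23a1.

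Among chains of the type VI microfibril, which surrounds cells, Col6a1 had 5.56, 0.575, 1.80 and 2.78 FPKM with hairpin A, 5.92, 0.351, 1.65 and 1.80 FPKM with hairpin B, and 5.28, 0.435, 2.13 and 4.30 FPKM in scrambled cells. Every later value lay below day 0, by -2.18 ± 0.21, -1.20 and -0.78 at days 3, 6 and 9 (limma adjusted p = 0.000768, 0.0127 and 0.0381). Col6a2 read 3.93, 1.54, 1.24 and 1.32 FPKM with hairpin A, 3.61, 1.19, 1.26 and 0.851 FPKM with hairpin B, and 2.71, 1.35, 0.887 and 1.80 FPKM in scrambled cells. It too lay below day 0 throughout, by -0.89, -1.05 and -0.93 (limma adjusted p = 0.0321, 0.018 and 0.0227). Of the fibril associated genes, Col12a1 fell at day 3 by 1.25 ± 0.19 (limma adjusted p = 0.008), with 0.0219, 0.0544 and 0.0478 FPKM at day 3 in hairpin A, hairpin B and scrambled cells and 1.41, 1.70 and 1.34 FPKM at day 0. Col16a1 fell at days 3 and 9 by 0.66 and 0.56 (limma adjusted p = 0.0416 and 0.0431). Col20a1 rose at day 9 by 1.07 ± 0.19 (limma adjusted p = 0.014), to 2.52, 2.65 and 2.56 FPKM in hairpin A, hairpin B and scrambled cells, a spread far narrower than for the type IV chains.

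Col9a2, a chain of the type IX collagen that coats type II fibrils, had 7.65, 4.14, 1.72 and 3.94 FPKM with hairpin A, 6.75, 2.39, 3.60 and 8.06 FPKM with hairpin B, and 7.51, 3.32, 2.50 and 5.70 FPKM in scrambled cells. All day 6 values were below all day 0 values, by -1.24 (limma adjusted p = 0.0282), and at day 9 the ranges overlapped. The short chain gene Col8a1, found in vessel walls and the cornea, had 3.15, 0.102, 0.402 and 0.760 FPKM with hairpin A, 2.70, 0.0159, 0.753 and 1.28 FPKM with hairpin B, and 2.68, 0.0319, 0.0579 and 0.547 FPKM in scrambled cells. Every later value lay below day 0, by -1.87 ± 0.19, -1.48 and -1.06 at days 3, 6 and 9 (limma adjusted p = 0.000929, 0.00377 and 0.0146). The members tested and never called by day were Col3a1, Col7a1, Col8a2, Col9a3, Col11a1, Col13a1, Col18a1, Col22a1, Col23a1 and Col27a1. Those under the filter were Col4a3, Col4a4, Col6a4, Col6a5, Col6a6, Col9a1, Col10a1, Col14a1, Col15a1, Col17a1, Col19a1, Col24a1, Col25a1 and Col28a1.

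Several of these quieter members still differed between libraries. The type IX chain Col9a3 had 1.45, 2.15, 4.60 and 1.31 FPKM with hairpin A, 1.34, 2.27, 1.20 and 1.79 FPKM with hairpin B, and 2.22, 2.74, 5.56 and 1.08 FPKM in scrambled cells, highest at day 6 in the hairpin A and scrambled cultures only. Its chain partner Col9a1 reached 3.09 FPKM in the scrambled library of day 9, where hairpins A and B had 0.728 and 0.0581 FPKM. The transmembrane gene Col13a1 had 2.75, 0.433, 1.42 and 1.21 FPKM with hairpin A, 1.01, 0.144, 0.171 and 1.93 FPKM with hairpin B, and 2.14, 0.319, 2.77 and 1.13 FPKM in scrambled cells. Every culture was below its day 0 value at day 3, and the day 3 difference of -1.15 was not called (limma adjusted p = 0.106). Col7a1, which forms the anchoring fibrils of skin, stayed between 0.455 and 1.31 FPKM in all 12 libraries. The multiplexin Col15a1 reached 1.3 FPKM in the scrambled library of day 9 and the type VI chain Col6a5 reached 1.03 FPKM in the hairpin B library of day 9. Each of those 3 members passed 1 FPKM in a single library, and the remaining 11 under the filter in none.

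Genes that make and handle collagen moved in more than 1 direction. Their counts stand beside the shares of all genes called. Those were 3.26% higher and 2.78% lower for day 3, 4.97% higher and 3.71% lower for day 6, and 10.3% higher and 6.22% lower for day 9. Single calls in a list of this size, such as 1 of 19 at day 3, are near those shares. Of 19 tested genes for collagen hydroxylation and folding, 1 was lower at day 3, 2 were higher at day 6 and 5 were higher at day 9. Serpinh1, the collagen chaperone of the endoplasmic reticulum, had 56.0, 61.5, 190 and 225 FPKM with hairpin A, 51.7, 51.9, 123 and 75.4 FPKM with hairpin B, and 59.4, 48.6, 239 and 288 FPKM in scrambled cells, and its day 9 difference was 1.59 ± 0.39 (limma adjusted p = 0.0335). Of 9 genes for procollagen cleavage and crosslinking, 3 fell at day 3, 1 rose and 5 fell at day 6, and 1 rose and 4 fell at day 9. Lox, a crosslinking lysyl oxidase, had 14.6, 0.172, 0.418 and 0.514 FPKM with hairpin A, 17.4, 0.229, 0.271 and 0.147 FPKM with hairpin B, and 14, 0.230, 0.334 and 0.579 FPKM in scrambled cells. Its later values were all far below day 0, and it fell by 3.75 at day 3 and by 3.54 at day 9 (limma adjusted p = 5.71e-06 and 2.08e-05). Among 9 binding partners, 2 fell at day 3, 1 rose and 2 fell at day 6, and 1 rose and 1 fell at day 9. The fibril-binding proteoglycan Bgn fell by 4.75 at day 3 and by 2.65 at day 9 (limma adjusted p = 4.02e-07 and 7.09e-05), and the collagen-binding protein Sparc rose by 1.28 at day 6 (limma adjusted p = 0.00482). Of 5 receptors, Ddr1 rose by 1.59 and Ddr2 fell by 1.32 at day 3 (limma adjusted p = 0.00804 and 0.0157). Of 8 breakdown genes, 2 fell at day 3, 2 rose and 1 fell at day 6, and 1 rose and 1 fell at day 9.

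The second question is whether the Braveheart hairpins changed collagen levels relative to the scrambled hairpin on the same day. No collagen was called on any day by limma, which tested 2 hairpin libraries against 1 scrambled library and assumed that the lone library varies as the hairpin pairs do. Hairpins A and B, which are different hairpins, were treated as replicates. The distance between them, wide at days 6 and 9, entered the spread, so the absence of calls does not show equal levels. The calls over all genes were 0.0213%, 0.0284%, 0.0425% and 0.0354% at days 0, 3, 6 and 9. At an unadjusted p under 0.05, 0 members passed at days 0, 3 and 9 and 1 at day 6. With culture as a block 0 were called as well. The comparisons of the 2 hairpins with scrambled cells share 1 scrambled library per day. Median differences of the 28 members were 0.13, 0.02, -0.19 and -0.24 at days 0, 3, 6 and 9, beside 0.01, 0, -0.02 and -0.07 over all genes.

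Most of the large differences were those of hairpin B. At day 6, 5 of 28 members were at least 2-fold lower in hairpin B than in scrambled cells, against 6.13% of all genes, and 1 in hairpin A, against 0.964%. At day 9 these counts were 7, against 13.5%, and 1, against 1.17%. Members at least 2-fold apart from scrambled cells in both hairpins were Col1a2 higher (0.354% of all genes) and Col23a1 lower (0.68%) at day 6, and Col3a1 lower (0.659%) at day 9, with none at days 0 and 3 (0.39% and 0.404% of all genes). At day 6 15 of 28 were lower in both hairpins by any amount, against 33.4% of all genes, and at day 9 12 were, against 34.2%. At day 0 18 of 28 were higher in both, against 32% of all genes.

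Col3a1 at day 9 had 27.2 and 1.15 FPKM in hairpins A and B and 65.1 FPKM in scrambled cells. Both hairpin values were lower, that of hairpin A by 1.23 and that of hairpin B by 4.95 on the log2 scale, and the joint difference was -3.09 ± 1.29 (limma adjusted p = 0.873). Without the hairpin A library of day 9, Col3a1 was the 1 member called lower, at -4.95. The 8 fibroblast markers summed to 50.7 and 12.1 FPKM in hairpins A and B and 87.0 FPKM in scrambled cells at day 9, and their part in the Col3a1 values was not tested. Col23a1, a transmembrane collagen (chr11:51103422-51397427, mm9), had 2.38 and 0.450 FPKM in hairpins A and B and 7.63 FPKM in scrambled cells at day 6. Both values were lower, and the difference was -1.96 ± 0.74 (limma adjusted p = 1). At day 9 it had 3.73 and 0.536 FPKM in the hairpins and 5.90 FPKM in scrambled cells. Col1a2 at day 6 had 11.6 and 12.0 FPKM in hairpins A and B and 5.04 FPKM in scrambled cells, a difference of 1.08 ± 0.64 that was not called. At day 9 the Col1a2 values of 3.87 and 15.3 FPKM in the hairpins lay on both sides of the scrambled 6.98 FPKM.

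For the type IV and type II chains the hairpins parted. Col4a5 and Col4a6 at day 9 differed from scrambled cells by 0.01 and 0.02 in hairpin A and by -1.74 and -1.79 in hairpin B. Col2a1 differed by -0.22 in hairpin A and -2.03 in hairpin B. None of the tested genes of collagen folding, cleavage, receptors, breakdown or binding was called on any day. Cardiomyocyte markers summed at day 9 to 73.1 FPKM in hairpin A, 13.7 FPKM in hairpin B and 423 FPKM in scrambled cells, and their relation to the collagen values was not tested.

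**Figure D3:**
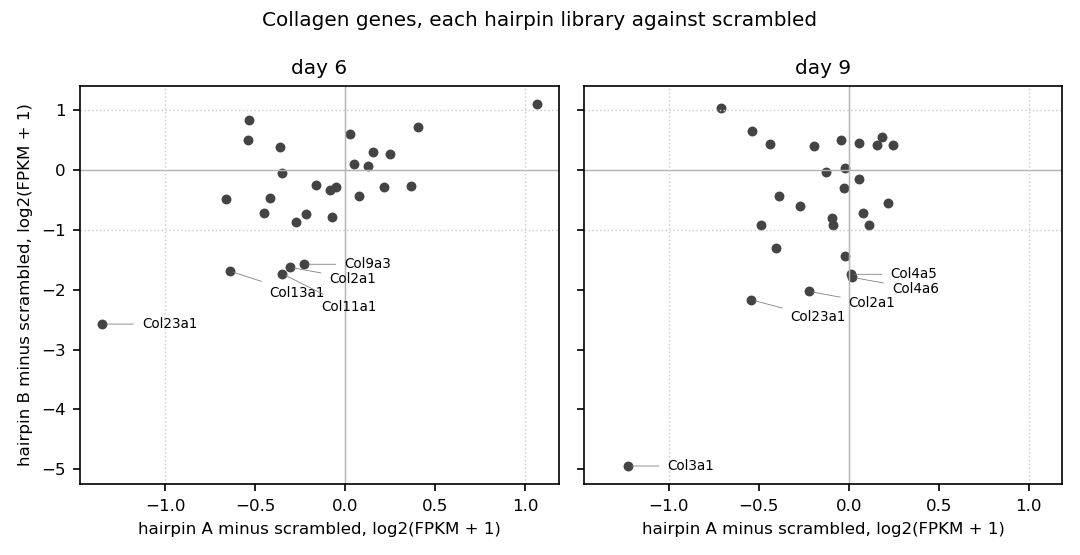
Difference of each tested collagen gene from the scrambled library in hairpin A (across) and hairpin B (up the page), as log2(FPKM + 1), at day 6 and day 9, with dotted lines at 2-fold. Points spread further down than sideways, and Col3a1 at day 9 and Col23a1 at day 6 are below 2-fold in both.

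In the discovery set the question is how the family differs between fibroblasts, partially and fully reprogrammed lines and embryonic stem cells. Collagen reads were 0.0391% and 0.0204% of reads in lines 11.3 and 11.5, 0.183% in miPS, 7.19% in MEF (95% Wilson interval 7.18% to 7.21%), 0.165% and 0.143% in E14 and 0.184% and 0.219% in v6.5 (intervals cover counting error only). Type I chains made up 13.5% and 0.975% of collagen reads in lines 11.3 and 11.5, 28.3% in miPS, 63.8% in MEF and 22.5% to 29.6% in mESC. Fibrillar collagens were 83.4% of the summed collagen TPM in MEF and the multiplexins 0.714%. The deposited TPM is above 0 even for genes with 0 reads, so reads are given for low members. Of the 43 members, 35 reached 1 CPM in at least 2 libraries and were tested with edgeR.

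**Figure D4:**
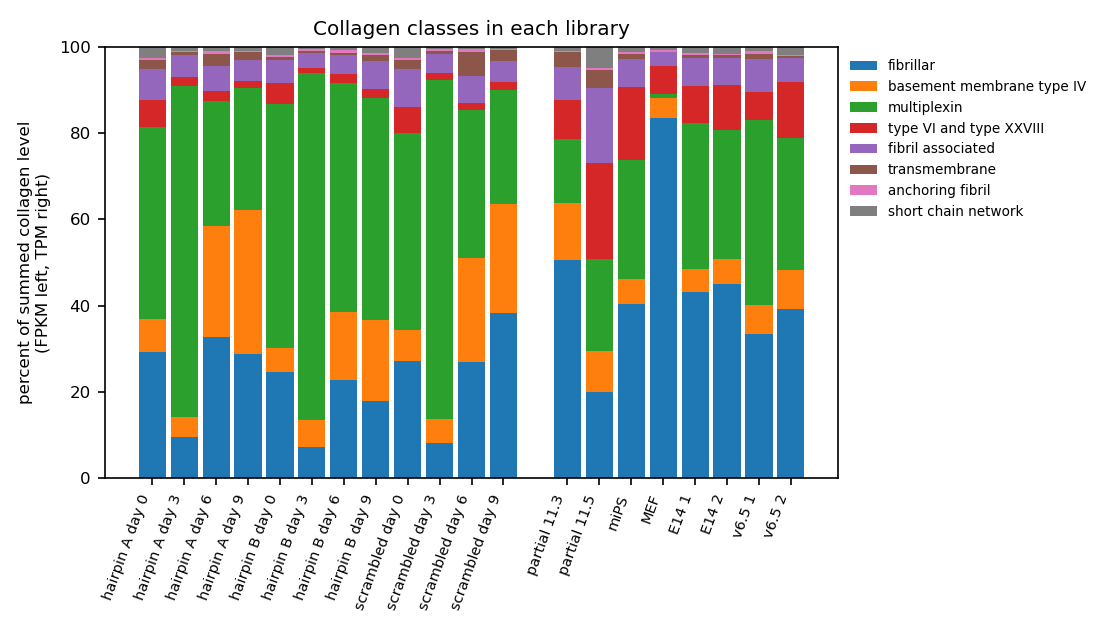
Share of the summed collagen level held by each assembly class, in percent, for 12 time course libraries (FPKM, left) and 8 discovery libraries (TPM, right). Multiplexins fill most of the day 3 bars and fibrillar collagens fill 83.4% of the MEF bar.

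MEF, set against the 4 mESC libraries, had higher levels of most collagens that passed. edgeR called 22 of 35 higher (62.9%), against 15.4% of all 16773 genes, and 2 lower (5.71%), against 13.2%, and the median log2 difference was 4.81 for collagens and -0.19 for all genes. Col1a1 had 8.33 and 0.0711 TPM in lines 11.3 and 11.5, 73.5 TPM in miPS, 8103 TPM in MEF, 87.2 and 72.3 TPM in E14 and 56.7 and 84.9 TPM in v6.5. Col1a2 had 6.96 and 0.895 TPM in lines 11.3 and 11.5, 52.2 TPM in miPS, 4813 TPM in MEF, 60.6 and 60.9 TPM in E14 and 44.3 and 73.7 TPM in v6.5. MEF lay above every other library for both chains and the partially reprogrammed lines below every other. In MEF against mESC, Col1a1 was higher by 7.10 ± 1.48 and Col1a2 by 6.77 ± 0.85 on the log2 scale (edgeR adjusted p = 0.0181 and 0.00421).

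Types V and III, and the common chains of type IV, were also called higher in MEF than in mESC. Col5a1 had 0.961 and 0.857 TPM in lines 11.3 and 11.5, 20.5 TPM in miPS, 1539 TPM in MEF, 26.3 and 21 TPM in E14 and 17.9 and 31.3 TPM in v6.5. Col3a1 had 0.685 and 0.121 TPM in lines 11.3 and 11.5, 25.1 TPM in miPS, 1168 TPM in MEF, 18 and 22.9 TPM in E14 and 11.3 and 29.0 TPM in v6.5. MEF was highest by far for each, and Col5a1 was higher in MEF than in mESC by 6.16 ± 0.44, Col3a1 by 6.21 ± 0.84 and Col5a3 by 6.80 ± 0.34 (edgeR adjusted p = 0.00134, 0.0052 and 0.001). Col4a1 had 6.67 and 2.74 TPM in lines 11.3 and 11.5, 15.3 TPM in miPS, 535 TPM in MEF, 13.4 and 12.8 TPM in E14 and 15.9 and 32.5 TPM in v6.5. Col4a2 had 3.34 and 1.70 TPM in lines 11.3 and 11.5, 10.3 TPM in miPS, 412 TPM in MEF, 11.9 and 10.8 TPM in E14 and 14.4 and 21.9 TPM in v6.5. The 2 chains were higher in MEF than in mESC by 5.26 ± 0.47 and 5.27 ± 0.39 (edgeR adjusted p = 0.00191 and 0.00134). Of the type VI chains, Col6a1, Col6a2 and Col6a3 were called higher in MEF and Col6a4, Col6a5 and Col6a6 were not, with 10 reads of Col6a4, 1 of Col6a5 and 0 of Col6a6 in MEF. Col6a1 had 3.44 and 2.77 TPM in lines 11.3 and 11.5, 33.9 TPM in miPS, 539 TPM in MEF, 19.8 and 21.8 TPM in E14 and 13.4 and 35.3 TPM in v6.5, and it was higher in MEF than in mESC by 4.97 ± 0.39 (edgeR adjusted p = 0.0015).

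Collagens of other classes were among those higher in MEF. Col12a1, which bridges fibrils and the surrounding matrix, had 1.57 and 4.01 TPM in lines 11.3 and 11.5, 5.23 TPM in miPS, 541 TPM in MEF, 9.16 and 8.82 TPM in E14 and 8.96 and 15.6 TPM in v6.5. Col6a3, the large type VI chain found in the discovery set only, had 1.3 and 1.41 TPM in lines 11.3 and 11.5, 21.6 TPM in miPS, 365 TPM in MEF, 11.4 TPM in both E14 libraries and 5.65 and 26.2 TPM in v6.5. MEF again lay above every other library, and the v6.5 replicates differed more from each other than the E14 replicates did. The MEF differences from mESC were 5.41 ± 0.77 for Col12a1, 4.81 ± 0.60 for Col6a3, 5.60 ± 0.35 for Col7a1 and 6.25 ± 0.61 for Col15a1 (edgeR adjusted p = 0.00603, 0.00425, 0.00113 and 0.00231). Col10a1, the collagen of hypertrophic cartilage, had 235 reads in MEF, 22 and 26 in E14 and 4 and 98 in v6.5, and was higher in MEF by 3.94 ± 0.97 (edgeR adjusted p = 0.0302). Col4a5 was called higher in MEF, by 4.54 ± 0.74 (edgeR adjusted p = 0.00874), while its neighbour Col4a6 was not, with 46 reads in MEF, 7 and 17 in E14 and 7 and 22 in v6.5. The lowest differences among those called higher were those of Col20a1 and Col8a2, at 2.41 and 3.43.

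Col18a1 was the collagen with the highest TPM in miPS and mESC. It had 15.3 and 11.2 TPM in lines 11.3 and 11.5, 130 TPM in miPS, 96.9 TPM in MEF, 175 and 137 TPM in E14 and 203 and 193 TPM in v6.5. MEF lay below all 4 mESC values, and the difference of -0.53 ± 0.42 was not called (edgeR adjusted p = 0.375). The 2 collagens called lower in MEF were Col9a2, with 5 reads in MEF, 357 and 318 in E14 and 183 and 83 in v6.5, and Col22a1, with 2 reads in MEF and 18 to 68 in mESC (edgeR adjusted p = 0.0437 and 0.0313). Col9a2 would not have passed the filter without the mESC libraries, which favoured the direction called. Without either E14 library 0 were called lower, and without v6.5 replicate 2 4 were. Per read depth Col22a1 was 13-fold lower in MEF (3.55 to 108, counting interval). Col13a1 had 0 reads in MEF, 49 and 35 in E14 and 23 and 4 in v6.5. Its mean mESC level was 5.57 times that of 3 reads in MEF (0.342 CPM). In v6.5 replicate 2 alone it had 0.323 CPM, below that floor. Col13a1 too would not have passed the filter without the mESC libraries. The other tested members that were not called were Col2a1, Col4a6, Col6a4, Col6a5, Col6a6, Col9a3, Col11a2, Col17a1 and Col24a1, and the members under the filter were Col4a3, Col4a4, Col9a1, Col14a1, Col19a1, Col23a1, Col25a1 and Col28a1.

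**Figure D5:**
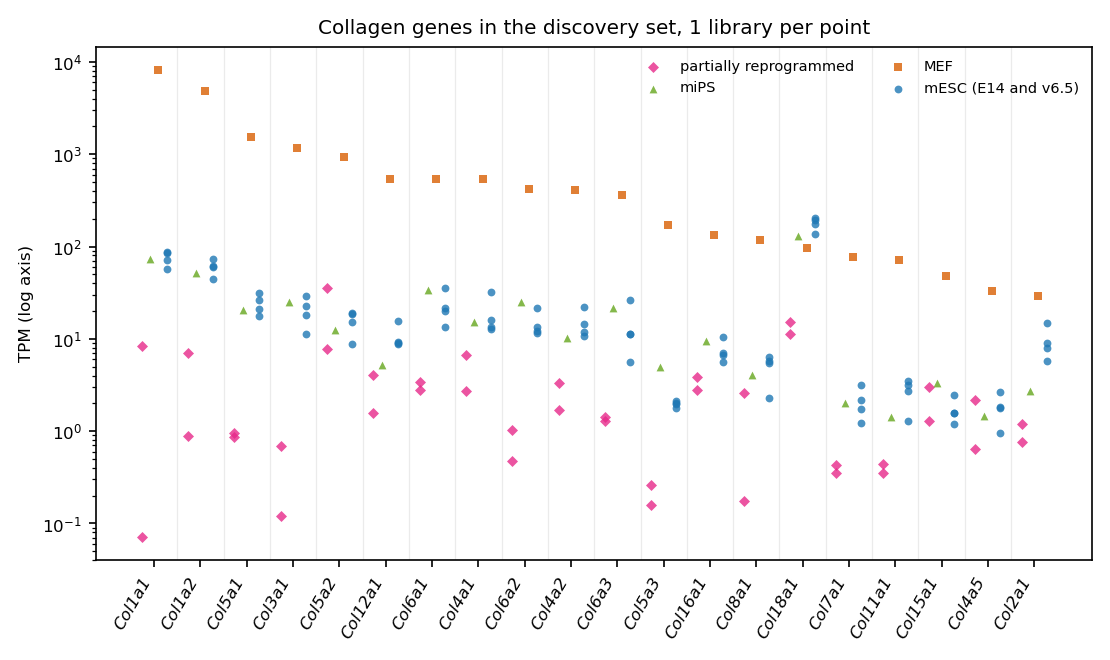
TPM, on a log axis, of the 20 collagen genes with the highest MEF level, with 1 point per library for partially reprogrammed lines, miPS, MEF and mESC. MEF is above all other libraries for every gene shown except Col18a1, where mESC and miPS are above it, and the partially reprogrammed lines sit lowest for most genes.

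Partially reprogrammed lines had less collagen RNA than their MEF parent. Against the single MEF library edgeR called 25 of 35 members lower (71.4%), against 8.87% of all genes, and 1 higher (2.86%), against 4.95%. The median was -7.01, or -6.43 with members of 0 reads at their bound, beside 0.15 for all genes. The median over all genes was 0.04 under another scaling, a shift small beside the collagen median. Col5a2, with 35.9 and 7.69 TPM in lines 11.3 and 11.5 and 938 TPM in MEF, fell by 5.62, and Col18a1 fell by 3.14 ± 0.44 (edgeR adjusted p = 0.0127 and 0.00811). Col8a2 and Col24a1 had 0 reads in both lines and were at least 25.8-fold and 6.88-fold lower than in MEF. Col24a1 would not have passed the filter without its MEF value. Col6a5, a type VI chain, was the member called higher, with 192 and 51 reads in lines 11.3 and 11.5 and 1 read in MEF, a ratio of 141 per read depth (25.1 to 5596, counting interval; edgeR adjusted p = 0.0448). Col6a6 had 13 and 266 reads in lines 11.3 and 11.5 (1.72 and 35.2 CPM) and 0 in MEF, and was not called. The mean of the lines was at least 53.9-fold above MEF, a bound that rests mainly on line 11.5. DESeq2 called 2 higher, and without either E14 library edgeR called 0 higher.

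Set against mESC, the partially reprogrammed lines were also lower in most collagens. The mESC were grown on feeder fibroblasts and these lines without feeders. A difference in cell state and remaining feeder RNA therefore cannot be told apart in this comparison. edgeR called 18 of 35 lower (51.4%), against 16.1% of all genes, and 3 higher (8.57%), against 13.6%, with a median of -2.67, or -2.33 with members of 0 reads at their bound, beside -0.05 for all genes. Col18a1 was lower by 3.67 ± 0.39 (edgeR adjusted p = 0.00249). Col9a2, with 0 reads in both lines, was at least 40.5-fold lower than the mean of the mESC libraries. It would not have passed the filter without those mESC libraries, which favoured this direction. Col1a1, whose 249 and 0 reads in lines 11.3 and 11.5 were far apart, had a difference of -4.03 ± 1.59 and was not called (edgeR adjusted p = 0.104). The 3 higher members were Col6a6 by 6.01, Col6a5 by 2.76 and Col4a6 by 2.51 (edgeR adjusted p = 0.0145, 0.0283 and 0.0498). They were uneven between the lines: Col4a6 had 65 and 11 reads in lines 11.3 and 11.5, Col6a5 192 and 51, and Col6a6 13 and 266. Col6a6 passed the filter only through these lines, which favoured the direction called. Without either E14 library 0 were called higher, and without line 11.3 1 was.

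The fully reprogrammed miPS line was lower than MEF in many collagens, and no collagen was called between it and mESC. Against MEF edgeR called 15 of 35 lower (42.9%), against 5.7% of all genes, and 0 higher, against 7.27%, with a median of -4.24 beside 0.22. Called members included Col1a2 at -6.78, Col4a1 at -5.33 and Col6a1 at -4.24 (edgeR adjusted p = 0.0405, 0.0177 and 0.0171), while Col1a1 and Col3a1 were not called. Both groups are 1 library, so the spread comes from the mESC and partially reprogrammed libraries, and without either E14 library 0 collagens were called lower. Without either v6.5 library 3 were called higher. For the higher direction with all libraries, DESeq2 called 1, and 30 members passed an unadjusted p under 0.05 in edgeR in either direction. Against mESC 0 of 35 were called by edgeR or DESeq2, against 0.0298% of all genes in edgeR, and 1 passed an unadjusted p under 0.05, Col5a3 with a difference of 1.42 (edgeR adjusted p = 0.384). Between E14 and v6.5 0 were called by edgeR or DESeq2, against 0.489% of all genes in edgeR, and 1 passed an unadjusted p under 0.05, Col7a1 at -1.09 (edgeR adjusted p = 0.199). Without v6.5 replicate 2, Col6a3 was called higher in E14 by 1.17 and Col7a1 lower by 1.40.

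Collagen levels outside MEF were set beside those of fibroblast markers. Of the collagens, 22 had at least 10 TPM in MEF, a choice that fixes their direction, and their median level as a percentage of MEF was 0.634% and 0.504% in lines 11.3 and 11.5, 2.86% in miPS, 3.01% and 2.77% in E14 and 2.22% and 5.25% in v6.5. The 7 fibroblast markers with that level in MEF had medians of 0.456% and 0.236% in lines 11.3 and 11.5, 5.18% in miPS, 2.24% and 3.29% in E14 and 3.65% and 4.54% in v6.5. The 8 fibroblast markers summed to 9.36 and 60.2 TPM in lines 11.3 and 11.5, with 2 and 3 of them at 0 reads, 89.3 TPM in miPS, 2223 TPM in MEF and 50.6 to 88.4 TPM in mESC. In line 11.5 a single marker, the transcription factor Prrx1, gave 56.1 of the 60.2 TPM. The part of remaining feeder cells in these values was not tested. Col18a1 was the exception among the 22, at 135% to 210% of MEF in miPS and mESC.

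Most tested genes that make and handle collagen were called higher in MEF than in mESC, where the shares of all genes called were 15.4% higher and 13.2% lower. In MEF against mESC edgeR called 16 of 18 hydroxylation and folding genes higher, 10 of 12 cleavage and crosslinking genes, 6 of 7 receptors, 8 of 8 breakdown genes and 7 of 8 binding partners, while 1 binding partner, Nid2, was lower. Serpinh1 had 18.4 and 24.2 TPM in lines 11.3 and 11.5, 96.9 TPM in miPS, 2955 TPM in MEF, 115 and 94.3 TPM in E14 and 233 and 98.0 TPM in v6.5. Lox had 3.00 and 2.19 TPM in lines 11.3 and 11.5, 20.7 TPM in miPS, 1187 TPM in MEF, 30.9 and 27.8 TPM in E14 and 38.8 and 28.3 TPM in v6.5. Both were highest in MEF and lowest in the partially reprogrammed lines. Other listed genes had their highest level elsewhere. Loxl4, a lysyl oxidase, had 151 and 61.5 TPM in lines 11.3 and 11.5, 7.14 TPM in miPS, 26.8 TPM in MEF, 1.87 and 1.70 TPM in E14 and 3.18 and 1.47 TPM in v6.5. Nid2, a basement membrane linker, had 3.36 and 3.90 TPM in lines 11.3 and 11.5, 131 TPM in miPS, 33.5 TPM in MEF, 271 and 251 TPM in E14 and 156 and 120 TPM in v6.5. In partially reprogrammed lines against MEF, 8 folding genes, 8 cleavage genes, 4 receptors, 8 breakdown genes and 7 binding partners were lower and 0 of these lists higher, where 8.87% and 4.95% of all genes were lower and higher. In miPS against MEF, where 5.7% and 7.27% of all genes were lower and higher, 9 folding genes, 8 cleavage genes, 4 receptors, 5 breakdown genes and 5 binding partners were lower, and 1 binding partner was higher. Against mESC, 6 folding genes were higher and 4 lower in those lines, 3 cleavage genes higher and 6 lower, 1 receptor higher and 2 lower, 1 breakdown gene higher and 4 lower, and 0 binding partners higher and 4 lower, where 13.6% and 16.1% of all genes were higher and lower. Loxl4 was higher by 6.13 and Lox lower, at -3.64, while the receptor Ddr2 was higher by 3.09 and the inhibitor of matrix breakdown Timp1 by 2.92 (edgeR adjusted p = 0.00179, 0.00214, 0.00688 and 0.00346). None of the lists had a gene called in miPS against mESC or in E14 against v6.5.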

How the data were processed

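RNA sequencing of 20 mouse libraries was used. For the 12 time course libraries the authors deposited FPKM, for which the submitters' processing notes list Cufflinks 1.3.0, TopHat 1.14, Bowtie 0.12.7 and mm9. For the 8 discovery libraries the authors deposited RSEM expected counts and TPM, with TopHat 1.3 also in those notes. No source used here states whether counting used strand, and reads of overlapping antisense genes cannot then be told apart. A further 16 deposited columns of other values (confidence bounds) were not used, and 343 discovery entries have no values.

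FPKM were tested as log2(FPKM + 1) with limma 3.58.1 (R 4.3.3), after a filter of 1 FPKM in 2 libraries. The day fit had day and depletion as terms and 7 residual degrees of freedom, and the hairpin fit had 8 groups and 4. Expected counts, of which 58.0% were whole, were rounded and tested with edgeR 4.0.16 (quasi-likelihood, TMM, 1 CPM in 2 libraries, 5 groups, 3 residual degrees of freedom). DESeq2 1.42.0 was an alternative. Adjusted p-values are Benjamini-Hochberg over all genes tested, at 0.05. Scripts were tested on simulated data. Members, gene lists and tests were chosen with earlier results of these data known. Every member is accounted for, and those called, at least 2-fold changed in both hairpins, among the 12 highest or beside another member were described. Days of 1 culture share its hairpin line, which pairs them, and their deviations correlated at -0.091 to 0.642.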

Additional observations from a re-analysis of the deposited data

Results flagged for a closer look

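In 4 cases both hairpin cultures changed over days in one direction and the scrambled culture in the other. By day 6 relative to day 0, Col13a1 changed by -0.63 and -0.78 in hairpins A and B and by 0.26 in scrambled cells, a difference of -0.97 on the log2 scale. Col20a1 changed by -0.17 and -0.15 in hairpins A and B and by 0.25 in scrambled cells over the same days, a difference of -0.40. By day 9 Col18a1 changed by -0.01 and -0.13 in hairpins A and B and by 0.32 in scrambled cells, a difference of -0.39. Col5a1 changed by -0.03 and -0.21 in hairpins A and B and by 0.67 in scrambled cells, a difference of -0.79. The test of these differences in limma called 0 of 84 (28 members at 3 days), and adjusted p-values of the 4 were at or near 1. Over all genes the same test called only 2, 6 and 7 at days 3, 6 and 9. The absence of calls therefore does not set the collagens apart from other genes. The opposite directions include changes as small as -0.01, and the number of all genes showing them is not given. The largest labelled group holds 2 libraries, so no library could be checked against others of its group.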

How the results depend on the processing

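Of 134 counts recomputed under other settings without leaving out 1 library, 120 stayed within 1.5 times and 14 did not. Shares of all genes called are not given for these settings or for the fits with 1 library left out. With a pseudocount of 0.1, 4 collagens were lower at day 9 and 2 were at least 2-fold higher in both hairpins at day 6. Without the filter, 2 were at least 2-fold lower in both at day 9. Without the hairpin B libraries of days 6 and 9, day 3 had 1 higher and 17 lower, day 6 had 10 higher and day 9 had 12 higher. DESeq2 gave 2 higher in partially reprogrammed lines and 1 in miPS against MEF. Without a count filter MEF had 5 lower against mESC, partially reprogrammed lines 2 higher and miPS 4 higher against MEF. The replicate number of the E14 and v6.5 libraries is only a number (correlation of deviations 0.397); with it as a replicate block, partially reprogrammed lines had 0 and miPS 1 higher against MEF. The block by culture changed no collagen count by over 1.5 times.

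When 1 library was left out, counts ranged as follows, higher first: day 3 lower 5 to 6, day 6 0 to 5 and lower 1 to 8, day 9 2 to 12 and lower 0 to 8, and hairpins at day 9 lower 0 to 1. MEF against mESC gave 17 to 25 higher and 0 to 4 lower. Partially reprogrammed lines gave 0 to 1 higher and 19 to 27 lower against MEF, and 0 to 3 higher and 12 to 23 lower against mESC. Against MEF, miPS gave 0 to 3 higher and 0 to 22 lower, and E14 against v6.5 gave 0 to 1 higher and 0 to 1 lower. Of 1113 called values compared across settings, 0 changed sign and 166 lost the call. With few libraries per group and 1 MEF and 1 miPS library, a missed call does not show equal levels.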
